A study of Saccharomyces cerevisiae with 18 samples.

Results

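RNA from budding yeast lacking PIH1 was compared with RNA from budding yeast lacking TAH1, in strains in which Rvb2 carried a tag. The comparison used 6 of the 18 RNA-seq libraries of the series: 3 Rvb2-tagged PIH1 deletion libraries and 3 Rvb2-tagged TAH1 deletion libraries, with no wild type library. Of the 7126 genes and other features in the deposited table of normalized counts, the 5883 with a mean of at least 10 over these 6 libraries were tested. The 467 of them whose identifiers start with YPL or YPR, which are the left and right arms of chromosome XVI, were counted apart from the other 5416. Both groups were of the strain By4741, shared the tag on Rvb2 and differed, per the labels, in the deleted gene only. The kind of tag, the way the genes were deleted and the number of independent clones are not stated in the labels. Each strain had 3 biological replicates, grown as 5 ml of shaken YPD culture at 30 °C and harvested when the OD600 lay between 1.2 and 1.5. RNA carrying poly(A) tails was selected with oligo(dT) before library preparation. The other libraries of the series are wild type cells with a tag on Rvb1 or Rvb2 and the same deletions with a tag on Rvb1. The Rvb1-tagged deletion libraries are used at the end as a separate measurement of the same contrast.

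Pih1 and Tah1 form a heterodimer that joins the AAA+ ATPases Rvb1 and Rvb2 in the R2TP complex, and Tah1 binds the HSP90 chaperone. R2TP is a chaperone adaptor known for the assembly of box C/D snoRNPs, which guide ribosomal RNA modification and processing, and of RNA polymerase II and PIKK kinase complexes. Rvb1 and Rvb2 also sit, without Pih1 and Tah1, in the chromatin remodellers INO80 and SWR1.

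The normalized counts summed to 4882801, 4879550 and 4829249 in the PIH1 deletion libraries and to 5092419, 5012511 and 5045718 in the TAH1 deletion libraries. TAH1 deletion replicate 1 stood apart from the other two of its group. Over the tested genes its root mean square log2 distance was 0.242 from replicate 2 and 0.239 from replicate 3, against 0.191 between replicates 2 and 3. Differences below are log2 differences, PIH1 deletion minus TAH1 deletion, on the log2(normalized count + 1) scale with the standard error of the fit, and q is the p-value of limma after Benjamini-Hochberg adjustment over the 5883 genes. A gene is called higher or lower where q is under 0.05. The p-values measure the spread between 3 libraries a group. In RNA from whole cultures, fewer cells of one kind and less RNA per cell cannot be told apart.

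The deleted genes went with the labels. PIH1 (YHR034C, chrVIII:176965-177999, build R64, which is sacCer3) had 3, 1 and 5 normalized counts in the PIH1 deletion libraries, against 156, 156 and 170 in the TAH1 deletion libraries. TAH1 (YCR060W, chrIII:224399-224734) had 224, 234 and 221 normalized counts in the PIH1 deletion libraries and 0 in each TAH1 deletion library. With the mean of the TAH1 deletion group set to a floor of 3, TAH1 was at least 75.4-fold higher in the PIH1 deletion libraries. Transcripts of RVB1, the untagged partner of Rvb2, were at 1618, 1671 and 1652 in the PIH1 deletion libraries and at 1702, 1608 and 1608 in the TAH1 deletion libraries, and the groups overlapped (0.01 ± 0.04, q = 0.9). RVB2, which encodes the tagged protein and lies on chromosome XVI, had 302, 307 and 325 normalized counts in the PIH1 deletion libraries, against 513, 550 and 499 in the TAH1 deletion libraries. The difference of RVB2 was −0.74 ± 0.06 (q = 1.9e-07), with every PIH1 deletion library below every TAH1 deletion library.

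Genes beside the deleted ones moved too. NEL1, next to PIH1, was higher in the PIH1 deletion libraries (151, 156 and 141, against 57, 66 and 52 in the TAH1 deletion libraries, 1.35 ± 0.12, q = 2.1e-07). YHR033W, on the other side of PIH1, was higher by 0.28 ± 0.08 (q = 0.0044). YIH1, a regulator of the kinase Gcn2 next to TAH1, was higher in the PIH1 deletion libraries (693, 741 and 691, against 369, 275 and 283 in the TAH1 deletion libraries, 1.21 ± 0.09, q = 6.7e-08). TVS1, on the other side of TAH1, was lower by 0.71 on the log2 scale (139, 145 and 111, against 193, 240 and 215 in the TAH1 deletion libraries, q = 7.5e-05). These 4 genes lie beside loci that differ between the strains, and whether the deletions changed their transcripts directly was not tested.

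SIP18, a stress gene at 7, 8 and 8 normalized counts in the PIH1 deletion libraries and at 8, 13 and 5 in the TAH1 deletion libraries, lay just under the minimum mean of 10. SPL2, a phosphate regulator at 9, 24 and 17 against 10, 3 and 4 in the TAH1 deletion libraries, lay just above it.

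Transcripts that define a cells were high. MFA1, which encodes the a-factor pheromone, had 2613, 2541 and 2779 normalized counts in the PIH1 deletion libraries, against 1360, 1244 and 1196 in the TAH1 deletion libraries. STE2, the alpha-factor receptor, had 7409, 7417 and 7373, against 5221, 5049 and 5206 in the TAH1 deletion libraries. MATALPHA1, HMLALPHA1 and HMLALPHA2, which specify alpha cells, were listed at 0 in all 6 libraries. STE3, the receptor by which alpha cells sense a-factor, was low in both groups, at 8, 10 and 4 in the PIH1 deletion libraries and at 28, 23 and 25 in the TAH1 deletion libraries. SAG1, the alpha-agglutinin, was present, at 423, 492 and 411 in the PIH1 deletion libraries and at 334, 345 and 345 in the TAH1 deletion libraries (0.37 ± 0.07, q = 0.00051). The pheromone gene MF(ALPHA)2 was at 73, 48 and 53 in the PIH1 deletion libraries and at 50, 49 and 44 in the TAH1 deletion libraries, and the groups overlapped. LEU2, URA3 and MET17, which are deleted in By4741, were listed at 0 in all 6 libraries as well, while HIS3, disrupted in that strain, was at 496, 476 and 510 in the PIH1 deletion libraries and at 530, 530 and 559 in the TAH1 deletion libraries (−0.13 ± 0.06, q = 0.061).

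Most genes differed between the deletion strains. Of the 5883 genes tested, 3985 were called (67.7%). Outside chromosome XVI, 1874 of 5416 genes were higher in the PIH1 deletion libraries (34.6%), 1673 were lower (30.9%) and 1869 were not called. The groups did not overlap in 3747 of these 5416 genes (69.2%). The median difference there was 0.03. Most calls were of small size, since 416 of the 5416 genes were both called and past 2-fold (7.68%), 202 of them higher and 214 lower. Past 4-fold there were 32 higher and 39 lower genes. The largest falls outside chromosome XVI were in stress, chaperone and sugar genes, and the largest rises were in small RNA genes.

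Chromosome XVI stood apart from the other chromosomes. Of its 467 genes, 432 were lower in the PIH1 deletion libraries (92.5%), 6 were higher (1.28%) and 29 were not called. The groups did not overlap in 442 of the 467 (94.6%). Their median difference was −0.94, with quartiles of −1.17 and −0.67, so that the TAH1 deletion libraries were 1.92-fold higher at the median. The medians of the other 15 chromosomes lay between −0.04 on chromosome VI and 0.11 on chromosome VIII. Genes of chromosome XVI took 6.9%, 6.89% and 6.95% of all normalized counts in the PIH1 deletion libraries, against 12.04%, 12.06% and 12.02% in the TAH1 deletion libraries. The shares of the groups did not overlap.

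The shift ran along the whole chromosome. In 10 consecutive blocks of 45 genes with annotated positions, the median differences lay between −1.08 and −0.88, with no block near 0. The single genes were spread around that level: 454 of 467 had a difference below 0 and 13 above, and 352 (75.4%) lay within 0.5 of the median. The median of the 273 left arm genes, set against the genes of other chromosomes in the same library, differed by −0.958 between the groups, with a pooled SD of 0.018 between replicates. For the 194 right arm genes the value was −1.052, with a pooled SD of 0.012. Each arm gave a p of 0.1 in an exact two-sided permutation test over the 6 libraries, the smallest p that the 20 splits of 3 against 3 allow. Taken gene by gene, the median difference was −0.94 on either arm. With a minimum mean of 50, the left arm value was −0.99 and the right arm value −0.938. The arm values thus do not show a larger shift on the right arm.

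The Rvb1-tagged deletion libraries placed the 2 groups on a common scale. Relative to those 6 libraries, the median chromosome XVI gene was at 0.03 (1.02-fold) in each PIH1 deletion library. In the TAH1 deletion libraries it was at 0.98, 0.97 and 0.98, which is 1.97-fold, 1.95-fold and 1.97-fold. The Rvb1-tagged deletion libraries themselves lay between −0.01 and 0.01. The higher level was thus that of the 3 Rvb2-tagged TAH1 deletion libraries, and the PIH1 deletion libraries were close to the other background. DNA copy number was not measured here. For a single gene of chromosome XVI, a change of its own and the shift of the chromosome cannot be told apart, so members on that chromosome are given apart from every list below. The shift was in all 3 TAH1 deletion libraries and in no PIH1 deletion library. For genes of the other chromosomes too, the deleted gene and this shift therefore cannot be told apart as sources of a difference.

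**Figure D1:**
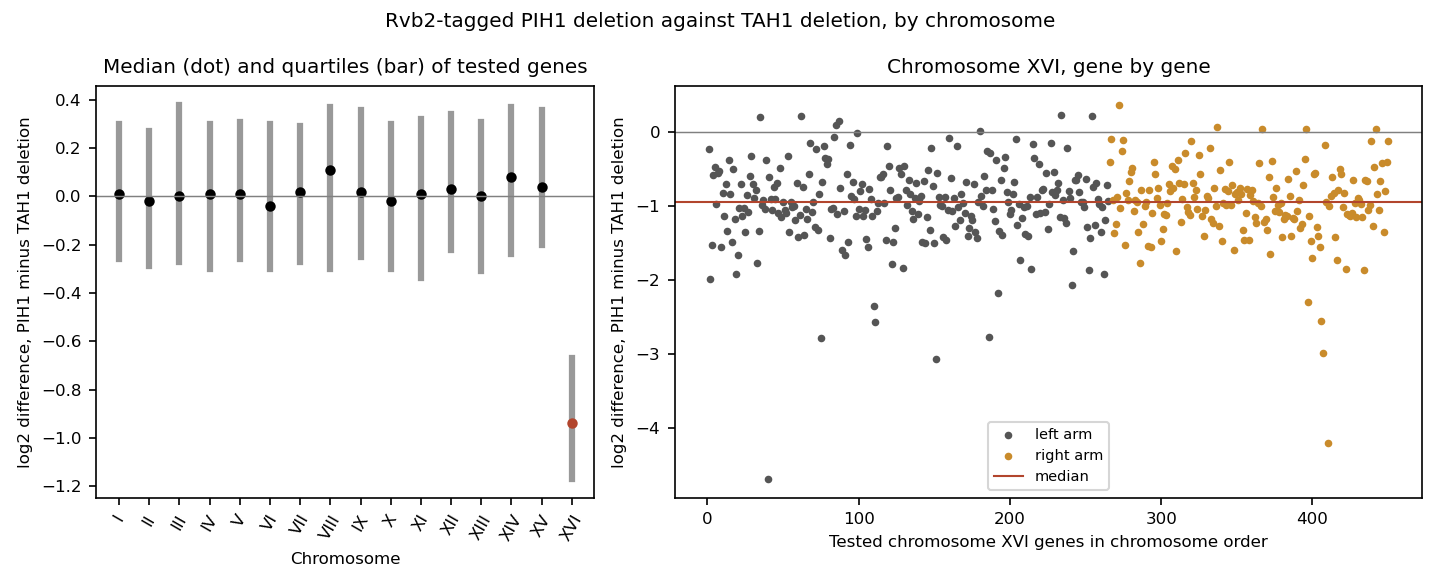
Left, median (dot) and quartiles (bar) of the log2 difference, PIH1 deletion minus TAH1 deletion, for the tested genes of each chromosome; right, the difference of 450 chromosome XVI genes with an annotated position, in chromosome order, with their median as a line. The chromosome XVI genes lie around −0.94 from end to end, while the medians of the other chromosomes lie between −0.04 and 0.11.

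Some chromosome XVI genes lay far from the level of the chromosome. HSP82 (YPL240C, chrXVI:96496-98625), the heat-inducible HSP90 to which Tah1 binds, had 210, 228 and 234 normalized counts in the PIH1 deletion libraries, against 5509, 5788 and 6040 in the TAH1 deletion libraries. That is a difference of −4.68 ± 0.05 (q = 6.8e-16), or 25.7-fold lower, where the median gene of the chromosome was at −0.94. GPH1, glycogen phosphorylase, had 58, 83 and 70, against 763, 1719 and 1656 in the TAH1 deletion libraries (−4.2 ± 0.23, q = 2.5e-09). TPK2, a catalytic subunit of protein kinase A, was lower by 2.79 on the log2 scale, with 83, 96 and 104 normalized counts against 579, 643 and 756 in the TAH1 deletion libraries. CUR1, a factor that sorts misfolded proteins, and RNY1, the vacuolar T2 ribonuclease, were also lower (−2.98 and −3.06). At the other end, 4 genes were higher in the PIH1 deletion libraries with no overlap between the groups, all by less than 1.5-fold: YPR002C-A (0.57 ± 0.11), PMA2 (0.23 ± 0.08), YPL245W (0.2 ± 0.06) and NAB3 (0.15 ± 0.05). PMA2, YPL245W and NAB3 were no longer called in a fit of all 18 libraries, at q values of 0.252, 0.089 and 0.146, and PMA2 and NAB3 also lost their call without single libraries.

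The HSP90 machinery was lower in the PIH1 deletion libraries. Of the 14 members of the R2TP and HSP90 list outside chromosome XVI, 9 were lower and 3 higher, with a median of −0.34, and 2 were not called. The list holds PIH1 and TAH1 themselves. HSC82, the constitutive HSP90, had 5700, 5644 and 5569 normalized counts in the PIH1 deletion libraries, against 15196, 14204 and 14258 in the TAH1 deletion libraries (−1.37 ± 0.04, q = 5.2e-12). STI1, which hands clients from HSP70 to HSP90, had 846, 834 and 797, against 2355, 2305 and 2335 in the TAH1 deletion libraries (−1.5 ± 0.04, q = 5.3e-12). The prolyl isomerase CPR6 and the HSP90 activator AHA1 were lower (−1.31 and −1.19). CNS1 and the phosphatase PPT1, which also bind HSP90, were higher, by 0.62 ± 0.07 and 0.69 ± 0.07. Within this machinery the direction was thus not uniform.

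HSP70, HSP40, HSP104 and small heat shock proteins keep proteins from aggregating or pull aggregates apart. Of 20 members outside chromosome XVI, 15 were lower and 4 higher in the PIH1 deletion libraries, with a median of −1.0 beside 0.03 for all 5416 genes. SSA1 (YAL005C, chrI:139503-141431), a cytosolic HSP70, had 501, 547 and 500 normalized counts, against 4391, 4657 and 4672 in the TAH1 deletion libraries (−3.15 ± 0.05, 8.85-fold lower, q = 1.4e-14). SSA2 shares most of its sequence with SSA1, so reads may be split between the copies; it had 4326, 4624 and 4316, against 12266, 11264 and 11390 in the TAH1 deletion libraries (−1.4 ± 0.05, q = 1.3e-11). HSP104, the disaggregase, had 500, 465 and 450, against 3068, 3588 and 3384 in the TAH1 deletion libraries (−2.82 ± 0.06, q = 3.5e-13). In all 3 genes the groups lay far apart beside the spread within either group.

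The small heat shock protein HSP42 was lower by 3.19 ± 0.1 on the log2 scale, with 104, 86 and 98 normalized counts in the PIH1 deletion libraries and 757, 918 and 977 in the TAH1 deletion libraries. SIS1, an HSP40 that works with Ssa1, was lower by 2.17, at 508, 491 and 510 against 2253, 2259 and 2287 in the TAH1 deletion libraries. Not all HSP70 genes followed. SSB1, the ribosome-bound HSP70, was higher (7148, 7305 and 6755, against 5115, 4737 and 4764 in the TAH1 deletion libraries, 0.54 ± 0.05, q = 1.5e-07), and so was SSA3 (0.39 ± 0.07, q = 0.00017). Of 10 chaperones of mitochondria, 6 were lower and 1 higher (70.0% called, beside 65.5% over all genes outside chromosome XVI). HSP78, the mitochondrial disaggregase, was lower (−3.09), as were HSP60 (−1.08), MDJ1 (−1.02) and SSC1 (−0.76). Of 36 genes of the proteasome and its regulators outside chromosome XVI, 28 were lower and 1 higher, all by small amounts (median −0.27), for example PRE5 (−0.61) and RPT2 (−0.47). RPN4, the transcription factor of the proteasome genes, had overlapping levels (732, 748 and 778, against 734, 812 and 826 in the TAH1 deletion libraries, −0.07 ± 0.06, q = 0.3).

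The upstream sequences of SSA1 and HSP104 show the letters searched in these genes. Only the form GAANNTTC of the heat shock element was searched, in the 300 bases that end 51 bases before the start codon. These letters read the same on either strand. Other forms of the element were not searched and are not marked, so the shares below cover GAANNTTC alone. GAANNTTC is printed here in capitals for SSA1 (chrI:141482-141781, minus strand) and HSP104 (chrXII:88273-88572, plus strand). Each window was read from R64 and runs 5′ to 3′ in the direction of the gene.
SSA1: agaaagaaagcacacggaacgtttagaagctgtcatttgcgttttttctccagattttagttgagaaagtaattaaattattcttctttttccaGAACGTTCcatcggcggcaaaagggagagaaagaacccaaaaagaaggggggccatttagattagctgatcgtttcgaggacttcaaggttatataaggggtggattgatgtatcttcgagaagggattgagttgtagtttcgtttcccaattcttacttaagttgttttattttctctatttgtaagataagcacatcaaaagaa
HSP104: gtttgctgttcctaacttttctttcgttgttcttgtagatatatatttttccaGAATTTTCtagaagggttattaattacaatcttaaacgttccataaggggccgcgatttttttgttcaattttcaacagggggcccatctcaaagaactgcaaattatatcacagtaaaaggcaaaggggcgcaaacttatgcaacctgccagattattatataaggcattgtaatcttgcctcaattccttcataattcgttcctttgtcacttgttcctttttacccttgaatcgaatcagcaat
GAANNTTC was in 10 of the 22 windows of the HSP70, HSP40, HSP104 and small HSP list (45.5%) and in 12.1% of all 5987 windows. It was in 14.1% of the windows of genes lower by more than 2-fold and in 8.97% of those higher by more than 2-fold.

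General stress genes, which yeast turns on under many kinds of stress and on leaving fast growth, were lower in the PIH1 deletion libraries. Of 24 outside chromosome XVI, 21 were lower, none was higher and 3 were not called, with a median of −1.51. YGP1, a secreted glycoprotein, had 694, 696 and 667 normalized counts, against 11165, 12550 and 13273 in the TAH1 deletion libraries (−4.16 ± 0.06, 17.9-fold lower, q = 2.5e-15). HOR7 had 920, 900 and 892, against 3197, 3400 and 3615 in the TAH1 deletion libraries (−1.91 ± 0.05, q = 2e-12). HSP12, a membrane-bound stress protein, had 929, 964 and 1015, against 1767, 1938 and 1909 in the TAH1 deletion libraries (−0.95 ± 0.05, q = 2.2e-09). DDR2 (−2.11), SPI1 (−1.61) and the catalase CTT1 (−0.87) were lower. MSN4 and MSN2, whose proteins switch on this programme, were lower (−0.54 and −0.21).

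Trehalose and glycogen are storage carbohydrates. Of 18 genes of their metabolism outside chromosome XVI, 17 were lower in the PIH1 deletion libraries and 1 was higher, with a median of −1.06. One of the 17, YPC1 (−1.37), encodes a ceramidase and no enzyme of these sugars. TSL1, a regulatory subunit of trehalose synthase, had 159, 211 and 187 normalized counts, against 1000, 1534 and 1566 in the TAH1 deletion libraries (−2.85 ± 0.14, q = 9.4e-10). TPS2, the trehalose-6-phosphate phosphatase, was lower (−1.81), and so were TPS1, the synthase itself (−1.66), and GSY2, glycogen synthase (−2.1). GAC1, a phosphatase subunit that activates glycogen synthase, was the gene that was higher (304, 326 and 294, against 178, 152 and 183 in the TAH1 deletion libraries, 0.85 ± 0.09, q = 1e-06).

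The first steps of glucose use also differed. HXK1 (YFR053C, chrVI:253592-255049), the hexokinase that is low in high glucose, had 133, 138 and 151 normalized counts, against 1594, 2685 and 2680 in the TAH1 deletion libraries (−4.0 ± 0.15, 15.9-fold lower, q = 6.2e-11). GLK1, glucokinase, had 273, 282 and 261, against 1613, 2352 and 2500 in the TAH1 deletion libraries (−2.96 ± 0.12). HXK2, the main hexokinase of fast growth, moved much less (3836, 3874 and 3852, against 5240, 5419 and 5573 in the TAH1 deletion libraries, −0.49 ± 0.04, q = 9.8e-08). In all 3 genes every PIH1 deletion library was below every TAH1 deletion library.

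Hexose transporters went both ways. HXT4, of intermediate affinity, had 314, 297 and 297 normalized counts, against 2790, 3987 and 3923 in the TAH1 deletion libraries (−3.54 ± 0.1). HXT7, of high affinity and nearly identical to HXT6, was lower by 3.22, while HXT2 was higher (906, 852 and 830, against 416, 436 and 396 in the TAH1 deletion libraries, 1.05 ± 0.06, q = 2.7e-09). Over the 16 hexokinase and transporter genes, 8 were lower and 5 higher (median −0.31). Of 26 genes of glycolysis and fermentation, 13 were lower and 5 higher (69.2% called, beside 65.5% over all genes outside chromosome XVI). The enolase ENO1 had 807, 807 and 778, against 4849, 8388 and 8660 in the TAH1 deletion libraries (−3.15 ± 0.15), while its partner ENO2 overlapped between the groups (−0.04 ± 0.05, q = 0.5). PGK1, phosphoglycerate kinase, was lower (−1.33), as were TDH2 (−1.43) and GPM1 (−0.98), and pyruvate kinase CDC19 did not pass the test (0.08 ± 0.04, q = 0.11). TDH1 had 144, 150 and 165 against 310, 1831 and 1938 in the TAH1 deletion libraries (−2.75 ± 0.48, q = 0.00017), so that TAH1 deletion replicate 1 lay nearer to the PIH1 deletion libraries than to its own group.

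That replicate was the mildest of its group in most of these genes. Of the 214 genes lower by more than 2-fold outside chromosome XVI, TAH1 deletion replicate 1 was the lowest of its group in 163 and the highest in 19. Without it, all 214 were still called lower. In the list of general stress genes, 22 of 24 were lower without it, with a median of −1.67.

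**Figure D2:**
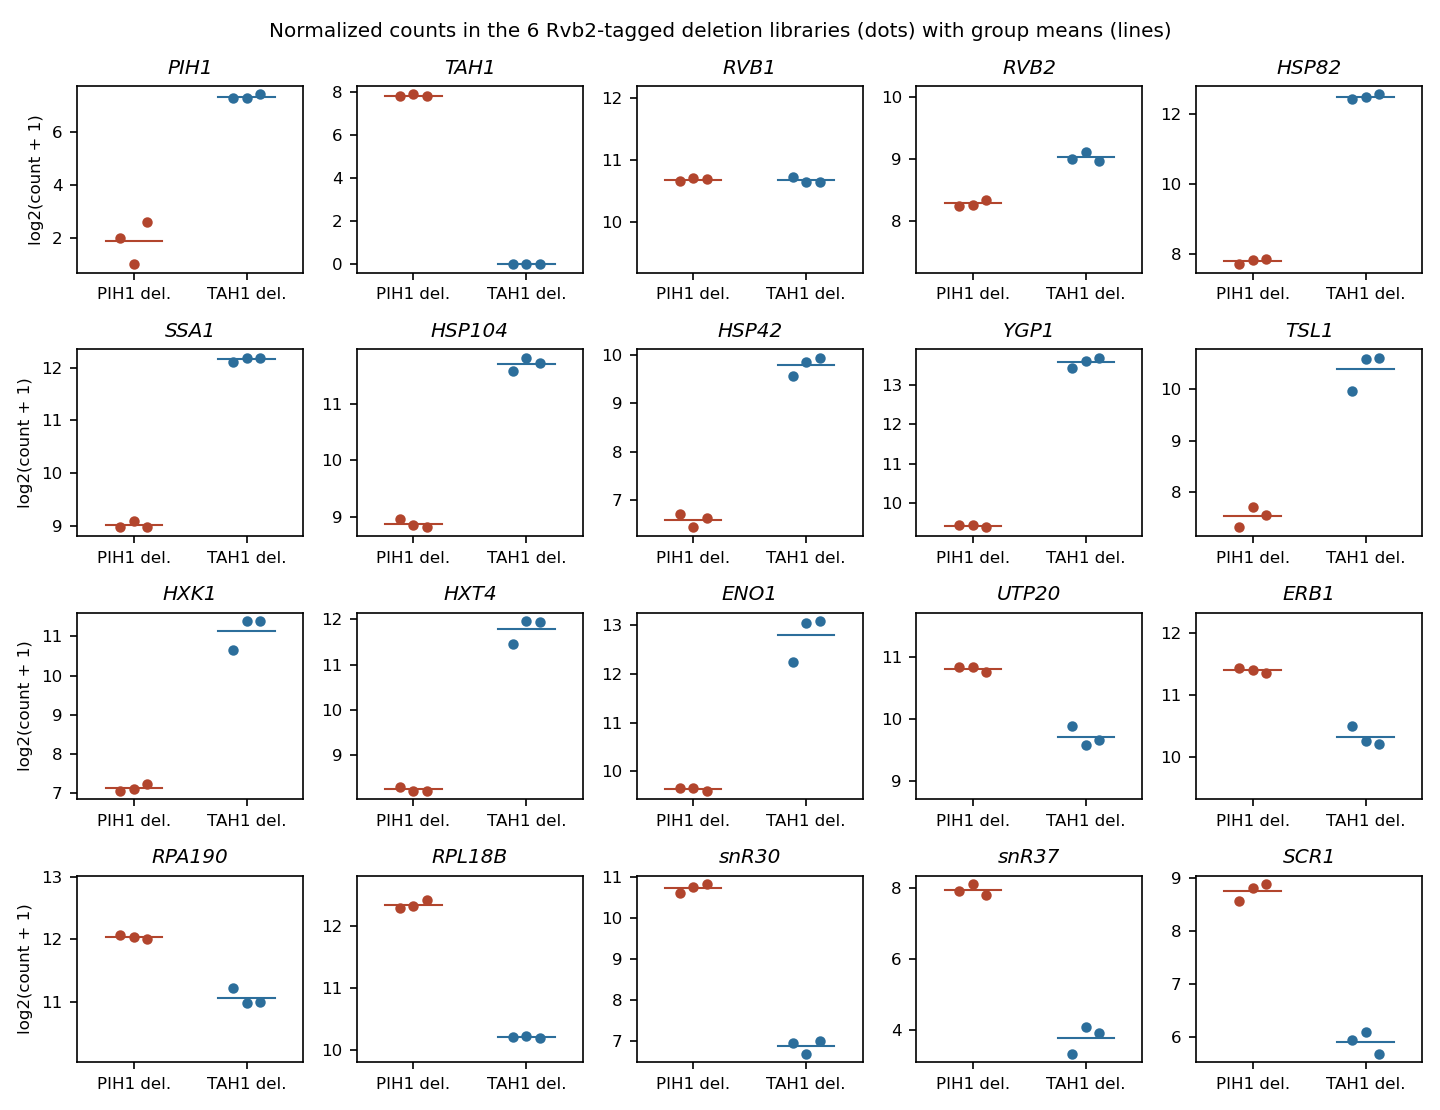
Log2(normalized count + 1) of 20 genes in the 3 PIH1 deletion and the 3 TAH1 deletion libraries, Rvb2-tagged, with 1 dot per library in replicate order and lines at the group means; each panel has its own axis range. The PIH1 deletion libraries lie below the TAH1 deletion libraries in SSA1, YGP1 and HXK1 and above them in UTP20, RPL18B and snR30, and TAH1 deletion replicate 1 is the lowest of its group in YGP1 and HXK1.

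Respiratory genes were lower, most of them by less than 2-fold. Of 33 nuclear genes of the respiratory chain and ATP synthase outside chromosome XVI, a list that also holds the regulator HAP4, 28 were lower in the PIH1 deletion libraries, none was higher and 5 were not called, with a median of −0.37. The cytochrome oxidase subunits COX6 and COX5B were lower (−0.57 and −0.86), and so was ATP2 of ATP synthase (−0.32). CYC7, the cytochrome c isoform of low oxygen, which was counted with the general stress genes, had 16, 15 and 13 normalized counts, against 60, 102 and 108 in the TAH1 deletion libraries (−2.5 ± 0.22, q = 2.3e-07). Of 20 genes of the TCA cycle, 14 were lower and 3 higher (median −0.61), the lower ones including SDH1 of succinate dehydrogenase (−1.33), aconitase ACO1 (−1.16) and citrate synthase CIT1 (−1.14). The 18 genes of gluconeogenesis and the glyoxylate cycle went the other way, with 11 higher and 3 lower (median 0.38). PCK1, its first enzyme, had 102, 83 and 94, against 36, 25 and 36 in the TAH1 deletion libraries (1.51 ± 0.17, q = 2.2e-06), while ADR1, an activator of genes for non-fermentable carbon, was lower by 1.48.

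Of 16 genes of NAD synthesis and salvage, 9 were lower and 1 higher (median −0.32). The called share of this list was 62.5%, beside 65.5% over all genes outside chromosome XVI. PNC1, the nicotinamidase, had 245, 275 and 292 normalized counts, against 1508, 1742 and 1828 in the TAH1 deletion libraries (−2.64 ± 0.08, q = 5.3e-12). Enzymes that make NAD from tryptophan were lower too, with BNA1 at −2.01, BNA5 at −1.92, BNA4 at −1.41 and BNA6 at −1.12. Of 14 genes of histones and their regulators outside chromosome XVI, 9 were lower and 2 higher (median −0.29). The 2 higher ones, HIR1 (0.3) and HIR3 (0.28), encode repressors of histone transcription, and no histone gene was called higher. Similarly, 11 of 16 genes of ribonucleotide reductase and the DNA damage response were lower, with 1 higher (median −0.29). RNR3, the damage-induced subunit, had 19, 13 and 18, against 42, 51 and 58 in the TAH1 deletion libraries (−1.54 ± 0.21, q = 1.7e-05).

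A short motif was common upstream of the genes that were lower. The letters AGGGG, the core of the site of Msn2 and Msn4, were in 136 of 206 windows (66.0%) of the genes lower by more than 2-fold outside chromosome XVI. They were in 16 of 145 windows (11.0%) of the genes higher by more than 2-fold, and in 22.9% of all 5987 windows. In the lists, 25 of 27 general stress windows (92.6%) and 17 of 21 trehalose and glycogen windows (81.0%) held it. TSL1 (chrXIII:70274-70573, plus strand) and HXK1 (chrVI:255100-255399, minus strand) are printed as examples with 4 matches and 1 match, each match on either strand in capitals.
TSL1: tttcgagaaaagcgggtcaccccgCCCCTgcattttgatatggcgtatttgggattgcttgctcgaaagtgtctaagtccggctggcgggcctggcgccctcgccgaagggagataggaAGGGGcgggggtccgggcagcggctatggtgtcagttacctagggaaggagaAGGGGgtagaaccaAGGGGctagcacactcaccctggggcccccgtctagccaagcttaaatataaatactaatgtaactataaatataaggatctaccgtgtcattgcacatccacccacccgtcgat
HXK1: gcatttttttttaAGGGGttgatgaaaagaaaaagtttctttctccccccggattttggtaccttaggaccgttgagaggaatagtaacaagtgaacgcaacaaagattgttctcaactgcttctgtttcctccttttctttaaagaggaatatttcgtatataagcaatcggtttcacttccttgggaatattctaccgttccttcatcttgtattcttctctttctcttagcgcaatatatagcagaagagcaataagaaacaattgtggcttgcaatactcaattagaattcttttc
A match describes the letters in the window and is not evidence of binding.

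Ribosome assembly was the most uniform group among the genes that were higher. All 48 tested genes of the small subunit processome and late 40S assembly outside chromosome XVI and all 56 of the large subunit assembly list were called higher in the PIH1 deletion libraries, with medians of 0.82 and 0.81. In these lists 7 and 10 genes were past 2-fold. The large subunit list includes NPA3 (0.5), which is better known for RNA polymerase II import and is counted there again. UTP20, of the small subunit processome, had 1832, 1828 and 1734 normalized counts, against 945, 770 and 812 in the TAH1 deletion libraries (1.1 ± 0.07, q = 5.6e-09). The helicase DBP2 had 8840, 8492 and 8110, against 3938, 2602 and 2742 in the TAH1 deletion libraries (1.48 ± 0.11, q = 4.9e-08). ERB1 and REA1, which act on pre-60S particles, were higher by 1.07 ± 0.06 and 0.97 ± 0.06. In each of these genes every PIH1 deletion library was above every TAH1 deletion library.

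The members on chromosome XVI were split. Of 5 processome genes there, 1 was higher and 4 were lower (median −0.37), and of 6 large subunit factors, 1 was higher and 3 were lower (median −0.15), beside −0.94 for the chromosome. RNA polymerases I and III, which make ribosomal RNA and transfer RNA, went with ribosome assembly: 16 of 18 genes were higher and 1 was lower (median 0.63). The lower one, MAF1 (−0.32), encodes a repressor of polymerase III. RRN3, an initiation factor of polymerase I, had 1161, 1178 and 1147, against 601, 543 and 553 in the TAH1 deletion libraries (1.04 ± 0.05, q = 1.1e-09), and RPA190, the largest subunit of that enzyme, was higher by 0.98 ± 0.06.

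The letters GATGAG, known as the PAC element, were in 46 of 53 processome windows (86.8%) and in 54 of 62 large subunit assembly windows (87.1%). They were in 66 of 145 windows (45.5%) of genes higher by more than 2-fold, in 31 of 206 windows of genes lower by more than 2-fold, and in 19.8% of all windows. IMP4 (chrXIV:485257-485556, plus strand), of the small subunit processome, has 1 match and NOP7 (chrVII:695067-695366, plus strand), of the large subunit, has 3 that overlap.
IMP4: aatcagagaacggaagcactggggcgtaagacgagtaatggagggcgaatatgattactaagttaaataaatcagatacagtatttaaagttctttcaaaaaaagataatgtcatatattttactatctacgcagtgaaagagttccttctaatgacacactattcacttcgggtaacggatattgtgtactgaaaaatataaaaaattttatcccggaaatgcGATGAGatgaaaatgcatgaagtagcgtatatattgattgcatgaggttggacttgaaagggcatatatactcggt
NOP7: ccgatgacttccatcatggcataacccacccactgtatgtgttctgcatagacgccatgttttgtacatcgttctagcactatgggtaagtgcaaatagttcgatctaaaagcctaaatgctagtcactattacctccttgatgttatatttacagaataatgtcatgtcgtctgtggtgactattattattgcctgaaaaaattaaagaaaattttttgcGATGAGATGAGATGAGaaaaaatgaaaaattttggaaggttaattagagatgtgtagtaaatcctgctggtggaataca
IMP4 was higher by 0.6 ± 0.08 (q = 1.9e-05) and NOP7 by 0.94 ± 0.08 (q = 1.9e-07) in the PIH1 deletion libraries.

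Ribosomal protein genes were higher by smaller amounts. Of the small subunit proteins, 49 of 54 were higher and 3 lower, and of the large subunit proteins, 63 of 73 were higher and 5 lower, both with a median of 0.4. RPS24B was higher by 0.71, RPS16A by 0.61 and RPL1B by 0.69. A few duplicated genes stood apart. RPL18B had 5020, 5105 and 5480 normalized counts, against 1184, 1203 and 1169 in the TAH1 deletion libraries (2.13 ± 0.04, 4.38-fold higher, q = 2.6e-13). RPL8A was lower (614, 595 and 581, against 1826, 1804 and 1825 in the TAH1 deletion libraries, −1.61 ± 0.05, q = 4.3e-12), while its copy RPL8B was higher by 0.57 ± 0.04. Duplicated ribosomal protein genes are so alike that reads may have been split between copies.

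The protein parts of the snoRNPs, the particles known as R2TP clients, were higher. Of 14 box C/D and H/ACA protein and assembly genes outside chromosome XVI, 13 were higher and none was lower (median 0.55). NOP1, the methyltransferase of box C/D particles, had 7427, 7897 and 6693 normalized counts, against 4924, 4368 and 4451 in the TAH1 deletion libraries (0.68 ± 0.06, q = 2.6e-07). NOP56 and NOP58, the core proteins that R2TP helps to load, were higher by 0.53 ± 0.06 and 0.47 ± 0.06. CBF5, the pseudouridine synthase of H/ACA particles, was higher by 0.39 ± 0.05, and the H/ACA assembly factor NAF1 by 1.12 ± 0.07. Of the factors that assemble box C/D particles, BCD1 was higher by 0.87 ± 0.09 and HIT1 by 0.56 ± 0.15, while RSA1, on chromosome XVI, was not called (516, 490 and 497, against 594, 508 and 485 in the TAH1 deletion libraries, −0.07 ± 0.07, q = 0.39).

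Small RNA genes had many of the largest rises. Of 64 tested small nucleolar, spliceosomal and other small RNA genes, 55 were higher in the PIH1 deletion libraries, 1 was lower and 8 were not called, with a median of 1.6 beside 0.03 for all genes outside chromosome XVI. Their summed normalized counts were 10222, 10372 and 11166 in the PIH1 deletion libraries, against 2861, 2686 and 2673 in the TAH1 deletion libraries. These sums were 0.209%, 0.213% and 0.231% of the library in the PIH1 deletion group, against 0.0562%, 0.0536% and 0.053% in the TAH1 deletion group. Mature small RNAs mostly lack a poly(A) tail and the libraries were made after oligo(dT) selection, so these values count the RNA that passed that selection.

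Both classes of guide RNA were higher. Of 29 box H/ACA genes, most of which guide pseudouridylation, 28 were higher and 1 was lower, with a median of 1.85. Box C/D genes mostly guide methylation, and R2TP helps to assemble their particles. Of 28 such genes, which include the 2 of U3, 21 were higher and none was lower, with a median of 0.95. The summed box H/ACA counts were 5714, 5741 and 6219 in the PIH1 deletion libraries, against 1295, 1105 and 1215 in the TAH1 deletion libraries. The summed box C/D counts were 1577, 1540 and 1730, against 669, 613 and 582 in the TAH1 deletion libraries. Leaving out any 1 library, 26 to 28 of the H/ACA genes and 17 to 19 of the C/D genes were called higher. The difference between the classes was not tested.

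Sequences of 3 of these RNAs are printed to show both classes, read from R64. snR13 (chrIV:1402919-1403042, plus strand) and snR128 (chrX:139566-139691, minus strand), which is U14, are box C/D RNAs with box C (TGATGA) and box D (CTGA) in capitals. snR161 (chrII:307185-307345, minus strand) is a box H/ACA RNA with its ACA box in capitals, 3 bases from the 3′ end.
snR13: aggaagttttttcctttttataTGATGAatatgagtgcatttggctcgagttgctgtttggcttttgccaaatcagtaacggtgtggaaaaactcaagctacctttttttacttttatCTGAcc
snR128: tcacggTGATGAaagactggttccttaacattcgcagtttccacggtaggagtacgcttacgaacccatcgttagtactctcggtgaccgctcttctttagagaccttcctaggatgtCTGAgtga
snR161: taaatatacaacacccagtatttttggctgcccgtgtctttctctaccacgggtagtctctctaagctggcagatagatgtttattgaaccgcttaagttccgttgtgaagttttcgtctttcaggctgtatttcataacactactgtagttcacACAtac
snR13 had 71, 55 and 58 normalized counts in the PIH1 deletion libraries, against 7, 7 and 2 in the TAH1 deletion libraries (3.42 ± 0.34, q = 8.9e-07). snR128 had 44, 40 and 36, against 6, 3 and 4 in the TAH1 deletion libraries (2.98 ± 0.29, q = 5.6e-07). snR161 had 18, 21 and 24, against 0, 3 and 4 in the TAH1 deletion libraries (3.01 ± 0.53, q = 0.00019). All 3 were low in the TAH1 deletion libraries, where the pseudocount of 1 shrinks the difference.

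The highest rise of any gene but TAH1 was in snR37, a box H/ACA RNA, which had 244, 277 and 226 normalized counts, against 9, 16 and 14 in the TAH1 deletion libraries (4.19 ± 0.19, 18.2-fold higher, q = 2.8e-10). snR30, the H/ACA RNA needed for 18S rRNA processing, had 1551, 1721 and 1802, against 123, 102 and 128 in the TAH1 deletion libraries (3.84 ± 0.09, 14.3-fold higher, q = 4.4e-13). snR86 had 1616, 1513 and 1762, against 223, 175 and 174 in the TAH1 deletion libraries (3.1 ± 0.09). The 2 genes of U3, a box C/D RNA that acts in 18S rRNA processing, were higher by 2.81 ± 0.11 (snR17a) and 1.43 ± 0.19 (snR17b). snR17a overlaps IRC13, and reads of the 2 genes cannot be told apart without strand.

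Other stable RNAs were higher as well, so that the rise was not limited to nucleolar RNAs. SCR1, the RNA of the signal recognition particle, had 377, 452 and 473 normalized counts, against 60, 67 and 50 in the TAH1 deletion libraries (2.86 ± 0.12, q = 1.4e-10). TLC1, the telomerase RNA, had 2153, 2216 and 2260, against 661, 710 and 660 in the TAH1 deletion libraries (1.71 ± 0.05, q = 3.6e-12). RPR1 of RNase P and NME1 of RNase MRP were higher by 2.04 ± 0.18 and 2.12 ± 0.2, and LSR1, the U2 spliceosomal RNA, by 0.78 ± 0.11. The 1 gene that was lower, snR44 (−0.27 ± 0.1, q = 0.027), lies within RPS22B, whose reads it shares. In the Rvb1-tagged deletion libraries the summed counts of the 64 genes lay between 2772 and 3101, close to the Rvb2-tagged TAH1 deletion libraries and below each Rvb2-tagged PIH1 deletion library.

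**Figure D3:**
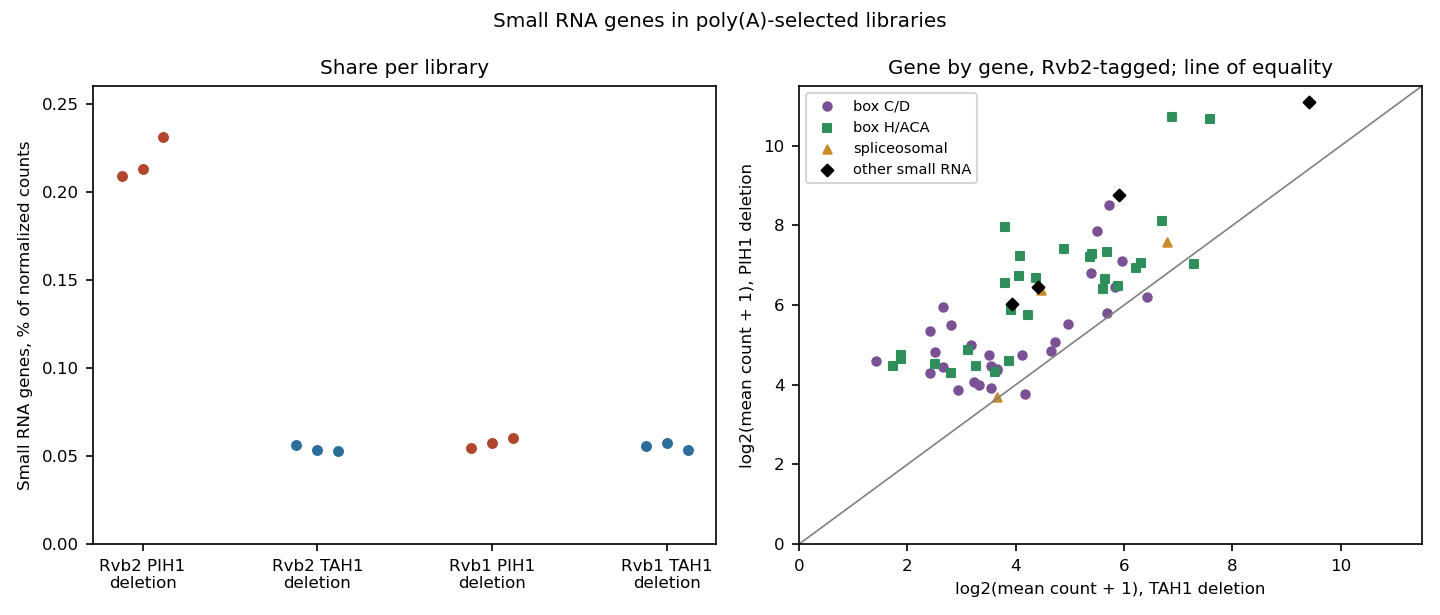
Left, small RNA genes as a percent of normalized counts in each deletion library of both backgrounds; right, log2(mean count + 1) of each of the 64 genes in the Rvb2-tagged PIH1 deletion libraries against that in the Rvb2-tagged TAH1 deletion libraries, by class, with the line of equality. The Rvb2-tagged PIH1 deletion libraries lie at 0.209% to 0.231%, against 0.053% to 0.0562% in the Rvb2-tagged TAH1 deletion libraries, and most genes lie above the line.

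Lists of nutrient genes mostly held more higher than lower members, beside 34.6% higher and 30.9% lower over all genes outside chromosome XVI. Of 48 genes of the Gcn4 list, most of them for amino acid synthesis, 30 were higher in the PIH1 deletion libraries and 6 lower (median 0.21). One of the 6 is ASC1 (−0.34), which encodes a small ribosomal subunit protein. The leucine pathway led them: LEU4 had 3908, 4016 and 3888 normalized counts, against 2020, 1980 and 2008 in the TAH1 deletion libraries (0.97 ± 0.04, q = 1.2e-10). The branched-chain aminotransferase BAT1 was higher by 0.91 ± 0.04 and BAT2 by 1.38 ± 0.09, while HIS4, of histidine synthesis, was lower by 1.28. GCN4 itself was higher by 0.34 ± 0.04 (q = 2.2e-06). Of 11 arginine genes, 6 were higher and 2 lower, among the 2 CAR2 of arginine breakdown, with CPA1 higher by 1.16 ± 0.05. Of 21 permeases, 11 were higher and 3 lower, a called share of 66.7% that is close to the 65.5% over all genes. BAP2, a branched-chain amino acid permease, had 3400, 3388 and 3289, against 1521, 1605 and 1630 in the TAH1 deletion libraries (1.08 ± 0.04, q = 1e-10).

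Nucleotide genes split by pathway. Of 13 genes of pyrimidine synthesis and uptake outside chromosome XVI, 9 were higher and none was lower (median 0.72). The called share of this list was 69.2%, beside 65.5% over all genes outside chromosome XVI. FUI1, the uridine permease, had 546, 549 and 525 normalized counts, against 193, 182 and 210 in the TAH1 deletion libraries (1.47 ± 0.07, q = 6.8e-10), and FUR1, which salvages uracil, was higher by 1.17 ± 0.06. Of 18 genes of guanine nucleotide synthesis and purine salvage, 12 were higher and 5 lower (median 0.47). The ADE pathway had 4 higher and 6 lower of 12 genes, with ADE17 at 519, 543 and 534 against 1823, 2683 and 2679 in the TAH1 deletion libraries (−2.15 ± 0.11, q = 1.3e-09).

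Of 21 genes of phosphate uptake and phosphatases, 13 were higher and 2 lower (median 0.26). PHO5, the secreted acid phosphatase, had 394, 382 and 393 normalized counts, against 177, 182 and 192 in the TAH1 deletion libraries (1.08 ± 0.07, q = 9.6e-09). The phosphate transporter PHO90 was higher by 1.08 ± 0.06 and PHO84, of high affinity, by 0.44 ± 0.06, while GPP2, a glycerol phosphatase, was lower by 2.31. PHO85, the kinase that restrains the pathway, lies on chromosome XVI and was lower by 1.23 ± 0.06 on the log2 scale. Of 9 genes of siderophore iron uptake, 7 were higher and none was lower (median 0.45), with the transporter SIT1 at 794, 739 and 764 against 369, 356 and 356 in the TAH1 deletion libraries (1.08 ± 0.06, q = 1.2e-09). Of 23 genes of reductive iron uptake and iron sparing, 11 were higher and 4 lower (median 0.17, 65.2% called).

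**Figure D4:**
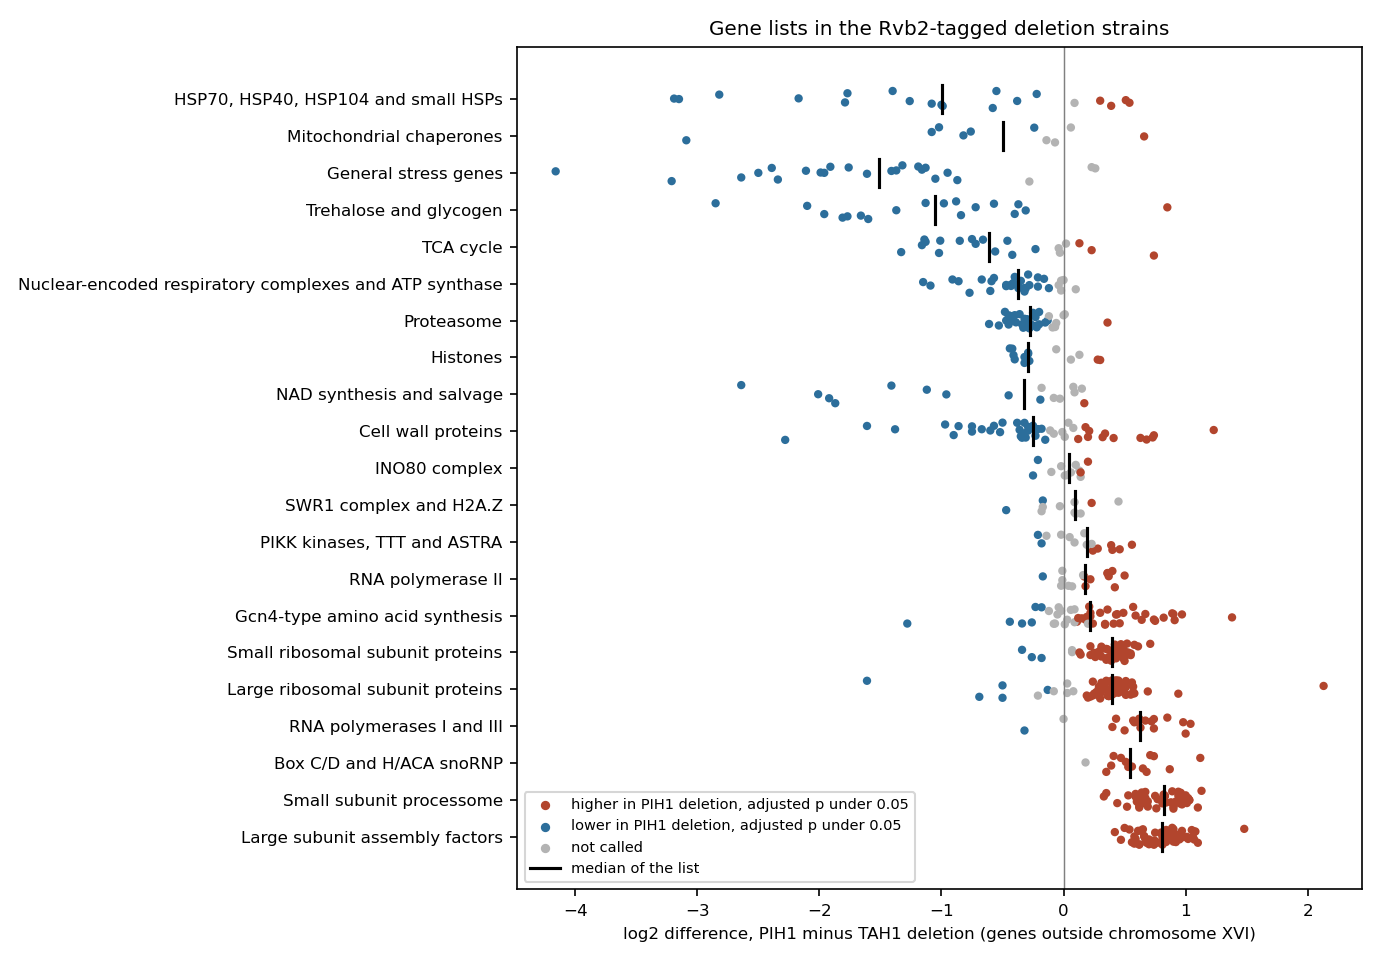
Log2 difference, PIH1 deletion minus TAH1 deletion, of each tested member of 21 gene lists outside chromosome XVI, coloured by call, with a bar at the median of the list. The ribosome assembly lists lie wholly to the right of 0 (medians 0.82 and 0.81), and most general stress genes lie to the left (median −1.51).

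Genes of the remodellers that hold Rvb1 and Rvb2 differed little. Of 12 INO80 genes outside chromosome XVI, 2 were higher and 2 lower (33.3% called), between −0.25 for ACT1 and 0.2 for IES1. Of 11 genes of SWR1 and its histone H2A.Z, 1 was higher and 2 were lower (27.3% called), with HTZ1, which encodes H2A.Z, at 502, 437 and 534 against 716, 638 and 680 in the TAH1 deletion libraries (−0.47 ± 0.07, q = 7.1e-05). IES1, IES2, SWR1 and SWC3 lost their call under at least 1 alternative. Over all genes outside chromosome XVI, 65.5% were called. Of 15 genes of PIKK kinases and their TTT and ASTRA partners, 6 were higher and 2 lower (53.3% called, median 0.19), with TTI1, of the TTT complex, higher by 0.4 ± 0.07. Of 16 genes of RNA polymerase II and its assembly, 9 were higher and 1 lower (62.5% called, median 0.18), with NPA3, a GTPase that brings the enzyme into the nucleus, at 1762, 1761 and 1773 against 1370, 1197 and 1195 in the TAH1 deletion libraries (0.5 ± 0.05, q = 2.2e-06). These counts depended on the scaling. With quantile normalization 4 INO80 genes were higher and 1 lower, 5 SWR1 and H2A.Z genes were higher and 2 lower, and 11 PIKK, TTT and ASTRA genes were higher and none was lower.

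Mating genes of a cells were higher more often than lower, in 14 against 3 of 24 (median 0.21, 70.8% called beside 65.5% over all genes). SST2, which dampens the pheromone signal, had 1574, 1684 and 1686 normalized counts, against 725, 777 and 662 in the TAH1 deletion libraries (1.19 ± 0.06, q = 9.7e-10). MFA1 was higher by 1.06 ± 0.05, STE2 by 0.52 ± 0.04 and the pheromone exporter STE6 by 0.51 ± 0.04. MFA2 (−0.05 ± 0.04), BAR1 (−0.03 ± 0.04) and ASG7 (−0.21, q = 0.16) did not pass the test. AGA2 (−0.41, q = 2.7e-05), AFB1 (−0.58, q = 0.0016) and STE4 (−0.19, q = 0.0035) were lower, so the markers of a cells did not move as 1 group. Of 15 genes of meiosis and sporulation, 4 were higher and 3 lower (46.7% called), with a median near 0. NDT80, a meiotic transcription factor, had 290, 295 and 264, against 121, 92 and 106 in the TAH1 deletion libraries (1.41 ± 0.1, q = 3.7e-08), while the meiotic regulators IME1 and IME2 were not called. SPR28 (−2.42, q = 0.0002) and SPS4 (−0.69, q = 0.012) were lower.

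The same contrast in the Rvb1-tagged background shares no library with this one. Of the 5416 genes outside chromosome XVI, 65.5% were called in the Rvb2-tagged background, against 32.4% in the Rvb1-tagged one. Both backgrounds called 272 genes higher, which is 14.5% of those higher in the Rvb2-tagged background and 32.2% of those higher in the Rvb1-tagged one. Both called 339 genes lower, which is 20.3% and 37.2% of the lower genes. Beside this, 34.6% of all 5416 genes were higher and 30.9% lower in the Rvb2-tagged background. In the Rvb1-tagged one, 844 of the 5416 were higher and 912 lower. Shared calls in the higher direction were thus about as frequent as calls over all genes. Across these genes the Pearson correlation between the 2 log2 differences was 0.07. In 617 genes the calls were opposite, 299 higher and 318 lower in the Rvb2-tagged background. The difference of the contrast between the backgrounds, tested over the 12 deletion libraries, was called in 3080 of the 5416 genes (56.9%) and in 407 of the 467 chromosome XVI genes (87.2%), together 3487 of 5883 (59.3%).

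Many chaperone genes moved in opposite directions, and so did genes of other lists. Calls were opposite in 27 of 36 proteasome genes, 20 of 48 genes of the Gcn4 list and 18 of 54 small ribosomal subunit genes. In the same order, 1, 2 and 3 genes were higher in both backgrounds, and 0, 5 and 2 were lower in both. Of the 20 genes of the HSP70, HSP40, HSP104 and small HSP list outside chromosome XVI, 9 had opposite calls in the 2 backgrounds, 8 of them lower in the Rvb2-tagged pair, and 1 had the same call. In the R2TP and HSP90 list 6 of 14 had opposite calls and 2 the same. Those 2 were the deleted genes PIH1 and TAH1, whose directions the deletions fix, so no HSP90 or cochaperone gene had the same call. Of 10 mitochondrial chaperones, 1 had opposite calls, and 3 were lower in both backgrounds. HSP26 was at −1.79 in the Rvb2-tagged pair and at −0.83 in the Rvb1-tagged pair, where it was not called. Not all members were thus opposite in sign. SSA1 was lower by 3.15 in the Rvb2-tagged PIH1 deletion, while in the Rvb1-tagged pair it was higher, with 3156, 3243 and 3552 normalized counts in the PIH1 deletion libraries against 1869, 1543 and 1594 in the TAH1 deletion libraries (0.99, q = 1.1e-05). The difference of the 2 contrasts was −4.14 ± 0.09 (q = 3.4e-14). For HSP82 that difference was −5.81 ± 0.12 (q = 1e-14), with 1867, 1832 and 2035 in the Rvb1-tagged PIH1 deletion libraries and 1024, 777 and 832 in the Rvb1-tagged TAH1 deletion libraries. Both Rvb2-tagged groups thus lay outside the Rvb1-tagged range of 777 to 2035 for HSP82, the PIH1 deletion below it at 210 to 234 and the TAH1 deletion above it at 5509 to 6040. HSC82, STI1, SIS1 and HSP104 were also higher in the Rvb1-tagged PIH1 deletion, by 0.71, 0.79, 0.75 and 1.11, where they were lower in the Rvb2-tagged one.

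Several phosphate genes were opposite the other way round. Of 21 genes of phosphate uptake and phosphatases outside chromosome XVI, 8 were called higher in the Rvb2-tagged pair and lower in the Rvb1-tagged pair, 1 was opposite the other way, and 2 had the same call, PHO87 (0.35 and 0.28) and GPP2 (−2.31 and −0.39). PHO5, higher by 1.08 in the Rvb2-tagged PIH1 deletion, was lower in the Rvb1-tagged pair, with 227, 224 and 220 normalized counts in the PIH1 deletion libraries against 1465, 1446 and 1581 in the TAH1 deletion libraries (difference of the contrasts 3.82 ± 0.08, q = 1e-14). IMD2, which is no phosphate gene but an IMP dehydrogenase close in sequence to IMD3, had 359, 399 and 373 in the Rvb2-tagged PIH1 deletion libraries against 194, 213 and 218 in the Rvb2-tagged TAH1 deletion libraries, and 46, 56 and 64 in the Rvb1-tagged PIH1 deletion libraries against 510, 543 and 521 in the Rvb1-tagged TAH1 deletion libraries (4.09 ± 0.14, q = 4.5e-12). Most small RNA genes that were higher in the Rvb2-tagged pair were not called in the Rvb1-tagged pair, where 9 of the 64 were called, 6 of them higher in both. The median of the 64 genes was −0.04 in the Rvb1-tagged pair, the difference between the pairs was called in 45, and that for snR37 was 4.4 ± 0.42 (q = 3.1e-07). LSR1 was alike, at 0.78 in the Rvb2-tagged pair and at 1.1 in the Rvb1-tagged pair (q of the difference = 0.19).

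Some genes were lower in both backgrounds. BNA1, BNA4 and BNA5 were lower in the Rvb2-tagged pair (−2.01, −1.41 and −1.92) and in the Rvb1-tagged pair (−1.58, −1.53 and −1.78), with no call on the difference for BNA4 (q = 0.49) and BNA5 (q = 0.3). For BNA1 the difference of −0.43 ± 0.16 between the pairs was called (q = 0.026). ADE17 was at −2.15 in the Rvb2-tagged pair and at −2.4 in the Rvb1-tagged pair (difference 0.26 ± 0.22, q = 0.32). TDH2 was at −1.43 and −1.67 in the same order (difference 0.24 ± 0.25, q = 0.44). A q above 0.05 does not show that a difference is 0. In both pairs, 14 of the 48 processome genes and 11 of the 56 large subunit assembly genes were called higher. Over all genes outside chromosome XVI, 844 of 5416 were called higher in the Rvb1-tagged pair. The median of either list was 0.11 in the Rvb1-tagged pair, and the difference between the pairs was called in 44 and 55.

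**Figure D5:**
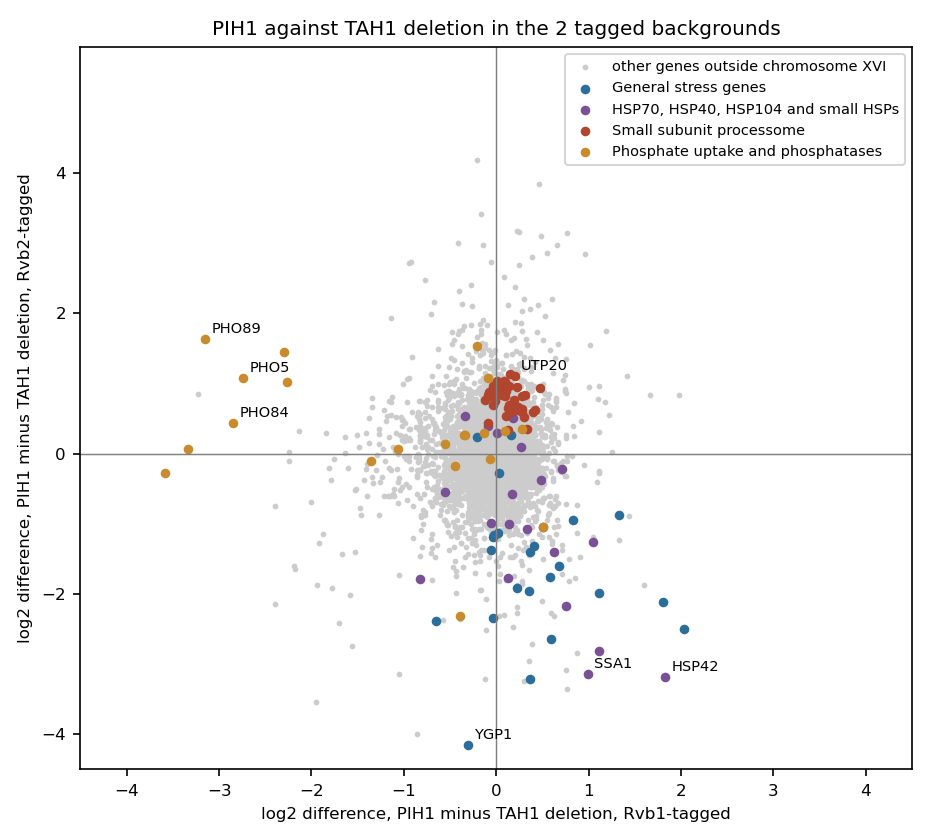
Log2 difference, PIH1 deletion minus TAH1 deletion, of each tested gene outside chromosome XVI, with the Rvb2-tagged background on the vertical axis and the Rvb1-tagged background on the horizontal axis, 4 gene lists in colour; PIH1 and TAH1 lie outside the plotted range. SSA1 and HSP42 lie at the lower right, PHO5 and PHO89 at the upper left, and the small subunit processome genes above 0 on the vertical axis and near 0 on the horizontal one.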

How the data were processed

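Reads from poly(A)-selected RNA had been counted per gene by the authors. The deposited table of normalized counts (unit: signal) holds whole numbers that the authors had scaled per library; no header or label states the scaling factors. The deposited FPKM values (unit: score), which the authors also rounded, served as an alternative. Per the submitters' processing notes, the tools included DESeq2 1.6.3 and TopHat2 2.0.3 and the build was sacCer3; neither these notes nor the labels name the annotation, the strand setting or filters. Since the values are no raw counts, no count model was run.

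Log2(normalized count + 1) of the 6 libraries was fitted with limma 3.58.1 in R 4.3.3 with an intensity trend over the genes whose mean reached 10, with Benjamini-Hochberg adjustment over all of them and a threshold of 0.05, two-sided. The fit was checked on simulated data. The difference between backgrounds was fitted over the 12 deletion libraries. Arm medians of chromosome XVI were tested by exact permutation. Groups followed the titles. Of the 7126 identifiers, 6048 were matched to the R64 annotation by locus tag and 114 by symbol; 209 tested ones had no match, and 6 tested small RNA genes of chromosome XVI (snR17b, snR41, snR45, snR51, snR59 and snR70) were counted with the other chromosomes because their identifiers do not start with YPL or YPR. Genes were named as near copies where their annotated spans in the genome shared at least 85% identity over at least 50% of their length.

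The members, gene lists and motifs were chosen with earlier results of these data known. Named genes were PIH1, TAH1, RVB1, RVB2 and the neighbours of the deleted genes, the largest non-overlapping changes of each direction, up to 4 members of each list with the smallest adjusted p, cell type and auxotrophy markers, and the largest differences between backgrounds; further list members given as examples were chosen after their values were seen. Lists were described by counts and medians, with no set test. Promoter windows of 300 bases, from 350 to 51 bases before the start codon, were read from R64. Alternatives were pseudocounts of 0.5 and 5, minimum means of 1 and 50, trimmed mean of M-values (TMM) factors computed in R, quantile normalization, library weights, the FPKM table, fits of 12 or 18 libraries, a replicate block, leaving out chromosome XVI and leaving out each library. The depth of the raw reads is not stated, so no counting interval was attached. The floor covers counting error only, since no molecular identifiers were counted.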

Additional observations from a re-analysis of the deposited data

Results flagged for a closer look

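The results below were singled out because the PIH1 minus TAH1 difference was not the same in the 2 backgrounds, by a test of the difference itself over the 12 deletion libraries (limma, Benjamini-Hochberg adjustment over 5883 genes). Each value is the log2 difference in the Rvb2-tagged pair minus that in the Rvb1-tagged pair. With 59.3% of all genes called in this test, a call alone does not set a gene apart.

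Among chaperone and stress genes the values were −5.81 for HSP82, −5.02 for HSP42, −4.53 for CYC7, −4.24 for GPH1 and −4.14 for SSA1. HSP82 and GPH1 lie on chromosome XVI, whose median gene differed by −0.94 in the Rvb2-tagged pair. CYC7 had 16, 15 and 13 normalized counts in the Rvb2-tagged PIH1 deletion libraries against 60, 102 and 108 in the Rvb2-tagged TAH1 deletion libraries, and 54, 111 and 126 in the Rvb1-tagged PIH1 deletion libraries against 51, 16 and 12 in the Rvb1-tagged TAH1 deletion libraries. The replicates of CYC7 and GPH1 were spread widely in the Rvb1-tagged pair, where GPH1 had 114, 639 and 674 in the PIH1 deletion libraries against 828, 202 and 269 in the TAH1 deletion libraries.

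Among genes that were higher in the Rvb2-tagged PIH1 deletion the values were 4.77 for PHO89, a sodium-phosphate transporter, 4.4 for snR37, 4.09 for IMD2, 3.82 for PHO5 and 3.76 for SPL2. PHO89 had 33, 40 and 42 normalized counts in the Rvb2-tagged PIH1 deletion libraries against 7, 16 and 14 in the Rvb2-tagged TAH1 deletion libraries, and 22, 16 and 9 in the Rvb1-tagged PIH1 deletion libraries against 302, 46 and 190 in the Rvb1-tagged TAH1 deletion libraries. SPL2 was no longer called in the Rvb2-tagged pair without PIH1 deletion replicate 2 (1.15, q = 0.065).

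The R2TP genes had values of 2.24 for TAH1, −0.38 for RVB1 and −0.88 for RVB2. The value of TAH1 rests on the pseudocount, since it was at 0 in the 3 Rvb2-tagged TAH1 deletion libraries and at 2, 2 and 3 in the Rvb1-tagged ones. RVB1 had 1618, 1671 and 1652 in the Rvb2-tagged PIH1 deletion libraries against 1702, 1608 and 1608 in the Rvb2-tagged TAH1 deletion libraries, and 705, 676 and 591 in the Rvb1-tagged PIH1 deletion libraries against 508, 491 and 504 in the Rvb1-tagged TAH1 deletion libraries.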

How the results depend on the processing

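No count of called genes over all genes or over chromosome XVI moved by more than 1.5 times, and no arm median and no called named gene changed sign, under the alternatives run (5 uncalled genes near 0, such as RVB1, did). Short lists moved more: with quantile normalization 7 of 11 SWR1 and H2A.Z genes were called (5 higher, 2 lower) and 11 of 15 PIKK, TTT and ASTRA genes were higher. The list of inositol and phospholipid genes had 9 higher and 8 lower with TMM scaling, and the median of the meiosis list lay between −0.17 and 0.17 when libraries were left out. Leaving out each library in turn gave 3701 to 4058 called genes, 1739 to 1913 higher and 1523 to 1706 lower outside chromosome XVI, 431 to 439 called on chromosome XVI, and 3275 to 3446 for the difference between backgrounds. Quantile normalization moved the split outside chromosome XVI to 2205 higher and 1368 lower. The arm medians moved by more than the spread between replicates: the left arm was at −0.899 with a minimum mean of 1, −0.990 with a minimum of 50, −0.986 with quantile normalization and −0.885 in FPKM, and the right arm at −1.032, −0.938, −1.067 and −0.991 in the same order. Leaving out libraries gave −0.970 to −0.950 and −1.060 to −1.044. The arm values do not depend on a model, so larger fits, weights and the block gave no other value for them. For the 244 named genes, 4267 of 4330 values kept the call or its absence, 42 lost the call and 21 gained it. In 221 genes no alternative changed whether the gene was called. Among the exceptions, YHR033W and ARG3 were no longer called in the fit of all 18 libraries (q = 0.073 and 0.081), HOP1 lost its call in 11 alternatives, SPL2 lost it without PIH1 deletion replicate 2 (1.15), and the 21S ribosomal RNA gained one with library weights (1.08) and without TAH1 deletion replicate 2 (1.39). The cause was not tested. Equal replicate numbers did not pair the libraries, since deviations of same-numbered libraries correlated at 0.0387, 0.0222 and −0.0258. A fit with the replicate block called 3986 genes, 1873 higher and 1673 lower outside chromosome XVI and 440 on it, and 3472 for the difference between backgrounds. Low values limit small RNA genes and others under about 10 normalized counts in a group, where the pseudocount shrinks the difference.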

Other observations

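Cell wall genes were lower more often than higher in the PIH1 deletion libraries, 27 against 12 of 45 (median −0.25), where 34.6% of all genes outside chromosome XVI were higher and 30.9% lower. CWP1, a mannoprotein of the wall, had 257, 248 and 262 normalized counts, against 1121, 1237 and 1387 in the TAH1 deletion libraries (−2.28 ± 0.07, q = 9.4e-12), and PST1 and HSP150 were lower (−1.38 and −0.97). The flocculation genes FLO1, FLO5 and FLO9, which are alike in sequence, were higher by 0.74, 0.63 and 0.68. Of 26 ergosterol genes, 13 were higher and 10 lower: ERG1 and ERG11 were higher by 0.41 and 0.34, while ERG3 and ERG25 were lower (−0.51 and −0.53). Of 22 genes of inositol and phospholipid synthesis, 7 were higher and 8 lower, a called share of 68.2% beside 65.5% over all genes. Of 20 multidrug resistance genes, 12 were higher and 4 lower (median 0.2). The exporters SNQ2 and TPO1 were higher by 0.72 ± 0.04 and 1.04 ± 0.08, TPO4 was lower (184, 193 and 209, against 594, 897 and 878 in the TAH1 deletion libraries, −1.99 ± 0.12, q = 7.6e-09), and the main pump PDR5 was lower by 0.2.

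Of 27 genes of sulfate assimilation and methionine synthesis, 15 were higher and 3 lower (median 0.3), with SAM1 higher by 0.57 and the methionine synthase MET6 lower (−0.94). Of 13 genes of one-carbon metabolism, 6 were higher and 3 lower, and of 8 genes of vacuolar polyphosphate, 1 was higher and 3 were lower. Of 4 tested auxotrophic marker genes, 2 were higher and 1 lower, and of 3 tested alpha-cell genes, 1 was higher and 1 lower. Of 19 mitochondrially encoded transcripts, the 21S ribosomal RNA was the 1 above the minimum, at 38, 15 and 26 in the PIH1 deletion libraries and at 15, 30 and 5 in the TAH1 deletion libraries, and it was not called (q = 0.14). Among genes with no described role here, YOL118C had 90, 88 and 97 normalized counts, against 9, 10 and 9 in the TAH1 deletion libraries (3.16 ± 0.18, q = 2.5e-09), and YER053C-A had 22, 17 and 12, against 146, 205 and 191 in the TAH1 deletion libraries (−3.36 ± 0.2, q = 5.1e-09).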
